A study of Homo sapiens with 18 samples.

Results

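Genes of the interleukin-17 (IL-17) signalling pathway were followed through chromatin accessibility data from a colon fibroblast line. The set held 8 genes, namely the receptor chains IL17RA, IL17RC, IL17RD and IL17RE, the adaptors TRAF3IP2 and TRAF6, the RNA-degrading feedback enzyme ZC3H12A and the target gene LCN2. An accessible region (peak) belonged to a gene if it overlapped the annotated gene body or the 10 kb upstream of it, in the hg38 genome build. This gave 92 of the 334857 peaks of the series, with a median width of 296 bp. IL17RD had 28 peaks, TRAF3IP2 19, IL17RA 15, ZC3H12A 9, LCN2 8, IL17RE 7, IL17RC 6 and TRAF6 2. IL17RC and IL17RE are neighbours and shared 2 of the peaks, so their values are not independent.

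IL-17A and IL-17F bind a receptor built from IL17RA and IL17RC, whereas IL17RE joins IL17RA to bind IL-17C, and IL17RD is a related chain that also restrains fibroblast growth factor signalling. The cytoplasmic part of these receptors recruits Act1, the product of TRAF3IP2, which brings in TRAF6, a ubiquitin ligase, and thereby starts NF-κB and MAP kinase signalling. ZC3H12A encodes Regnase-1, an enzyme that degrades messenger RNAs of inflammatory genes and limits the response, and LCN2 encodes lipocalin 2, an iron-scavenging protein that is a known target of IL-17 in epithelial and stromal cells. In fibroblasts the pathway acts together with TNF and IL-1β, in large part by stabilising messenger RNAs and inducing further transcription factors.

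The cells were Ccd18-Co, an established line of human colon fibroblasts, profiled by bulk assay for transposase-accessible chromatin with sequencing (ATAC-seq, Omni-ATAC protocol). Unstimulated cells formed the first of 3 groups of 6 libraries. The cells of the second group received 3 pulses of a mix of TNF, OSM and IL-17A (10 ng/ml each) with IL-1β (0.1 ng/ml), each for 72 h with 96 h of recovery, then rested for 1 week, and were given the solvent DMSO for 5 days. The third group received the same pulses and rest, followed by 250 nM belinostat, a histone deacetylase inhibitor, for 5 days. Harvest was 2 weeks later. The doses are those of the sample labels, and the study gives a higher belinostat concentration in its text and, in places, a lower one of IL-1β. DMSO minus unstimulated is called the cytokine contrast, belinostat minus DMSO the belinostat contrast and belinostat minus unstimulated the residual contrast. Each pair of contrasts has a group in common, so their values are not independent. A single line stands for all fibroblasts here, and the labels do not say that the 6 libraries of a group came from separate cultures, so the p-values measure the spread between these libraries, which may be technical.

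Fragments counted in peaks numbered 7077321 to 11352032 per unstimulated library, 6488975 to 8066642 per DMSO library and 4661678 to 6370845 per belinostat library. The 10000 strongest peaks held 35.4% to 39.0% of the counts in unstimulated, 31.8% to 35.2% in DMSO and 28.4% to 34.5% in belinostat libraries. Library unstimulated 6 stood apart, with 11.3% of all peaks at a count of 0. Fibroblast markers were accessible at the start of all 11 genes examined, with a median of 15.4 CPM (peak counts scaled to a common library size) per kb of peak in unstimulated cells, whereas the immune markers PTPRC and SPI1 had no peak there and CD3E (1.68 CPM per kb) and CD14 (7.88) had one. The smooth muscle marker ACTG2, at 27.8 CPM per kb in unstimulated cells, lay above the fibroblast median. In unstimulated, DMSO and belinostat cells, medians were 15.4, 12.3 and 12.6 CPM per kb for fibroblast and 6.58, 7.92 and 8.12 for smooth muscle markers. Those of endothelial markers were 1.37, 3.19 and 3.73, of epithelial markers 1.23, 2.77 and 2.08 and of glial markers 1.48, 3.07 and 2.99. The part of these markers in the results was not tested. A bulk measurement cannot tell apart a change in the share of cells that are open at a peak and a change in openness per cell.

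Sequences of 6 member regions that the results turn on are shown first, all on the plus strand of hg38, and each is described with its values further on. Bases are in lower case, and capitals mark matches, on either strand, to the searched motif letters of AP-1 (TGANTCA), C/EBP (TTGCNNAA), TEAD (GGAATG) and NF-κB. The first is the 236 bp peak in the last exon of IL17RA at chr22:17108721-17108956, inside coding sequence. The next pair lies in intron 1 of IL17RD, at chr3:57130245-57130529 and chr3:57161098-57161361. The fourth lies in intron 1 of TRAF3IP2 at chr6:111603057-111603353 and carries a long run of CA repeats. The fifth is the middle 300 bp, chr9:128144959-128145258, of the LCN2 upstream peak, and the last is the 188 bp directly before the start of LCN2, chr9:128149265-128149452, where no peak was found.
IL17RA last exon: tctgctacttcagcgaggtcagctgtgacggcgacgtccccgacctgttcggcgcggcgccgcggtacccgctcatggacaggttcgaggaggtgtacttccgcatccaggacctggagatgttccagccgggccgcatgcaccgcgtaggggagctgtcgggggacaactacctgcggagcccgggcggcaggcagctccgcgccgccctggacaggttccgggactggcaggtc
IL17RD intron 1, distal: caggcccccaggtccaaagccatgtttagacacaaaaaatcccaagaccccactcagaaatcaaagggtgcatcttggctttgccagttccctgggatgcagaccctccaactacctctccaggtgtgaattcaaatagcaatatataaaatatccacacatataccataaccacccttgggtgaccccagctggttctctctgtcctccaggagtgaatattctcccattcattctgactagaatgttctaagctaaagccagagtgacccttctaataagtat
IL17RD intron 1, proximal: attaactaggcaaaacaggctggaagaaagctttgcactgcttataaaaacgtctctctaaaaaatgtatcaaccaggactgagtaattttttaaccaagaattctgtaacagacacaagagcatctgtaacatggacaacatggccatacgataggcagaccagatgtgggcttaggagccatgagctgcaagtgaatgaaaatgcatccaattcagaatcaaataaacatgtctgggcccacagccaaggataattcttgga
TRAF3IP2 intron 1: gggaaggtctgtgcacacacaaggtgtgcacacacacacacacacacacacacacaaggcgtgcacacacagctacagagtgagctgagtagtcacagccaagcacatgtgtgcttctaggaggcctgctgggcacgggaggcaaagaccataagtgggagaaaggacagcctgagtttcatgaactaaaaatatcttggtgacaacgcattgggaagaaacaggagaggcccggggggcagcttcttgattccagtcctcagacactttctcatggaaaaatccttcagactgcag
LCN2 upstream peak: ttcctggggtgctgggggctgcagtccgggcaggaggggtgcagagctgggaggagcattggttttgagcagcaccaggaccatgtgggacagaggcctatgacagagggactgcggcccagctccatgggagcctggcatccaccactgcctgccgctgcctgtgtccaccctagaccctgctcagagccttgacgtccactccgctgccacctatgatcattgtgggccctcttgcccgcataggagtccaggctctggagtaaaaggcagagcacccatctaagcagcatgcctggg
LCN2 before the start: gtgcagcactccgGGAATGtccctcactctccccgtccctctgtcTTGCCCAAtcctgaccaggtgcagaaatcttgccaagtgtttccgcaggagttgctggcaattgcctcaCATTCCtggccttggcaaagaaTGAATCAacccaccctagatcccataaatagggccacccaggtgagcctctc
The sequence before the start of LCN2 held 4 matches, of which 2 were to TEAD at 128149278 and 128149379, 1 was to C/EBP at 128149310 and 1 was to AP-1 at 128149401. The 5 peak sequences printed above it held none. A mark names the searched letters only. The bases at and around the TEAD match at 128149278 may also form an NF-κB site that differs from the searched letters. The absence of an NF-κB mark before the start of LCN2 is therefore not evidence that such a site is absent.

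All receptor and adaptor genes, and ZC3H12A, had a peak over the start of their reference transcript, and LCN2 did not. Per kb of peak, the median level in unstimulated libraries was highest at ZC3H12A (38.7 CPM per kb, range 34.0 to 44.8), and no other member reached into that range. IL17RA (26.9, range 19.9 to 30.0), IL17RC (26.3, range 23.2 to 29.7) and TRAF3IP2 (20.8, range 20.4 to 25.1) followed and overlapped one another, then TRAF6 (17.7, range 16.0 to 18.4), below all TRAF3IP2 libraries. IL17RD stood at 8.11 CPM per kb (range 6.36 to 9.49) and IL17RE, whose chain is best known from epithelial cells, at 3.69 (range 2.58 to 4.31). The peak nearest to the LCN2 start, 367 bp upstream of it, held only 95 counts over all libraries. Its level was 5.40 CPM per kb (range 3.10 to 9.16) and overlapped those of IL17RD and IL17RE.

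**Figure D1:**
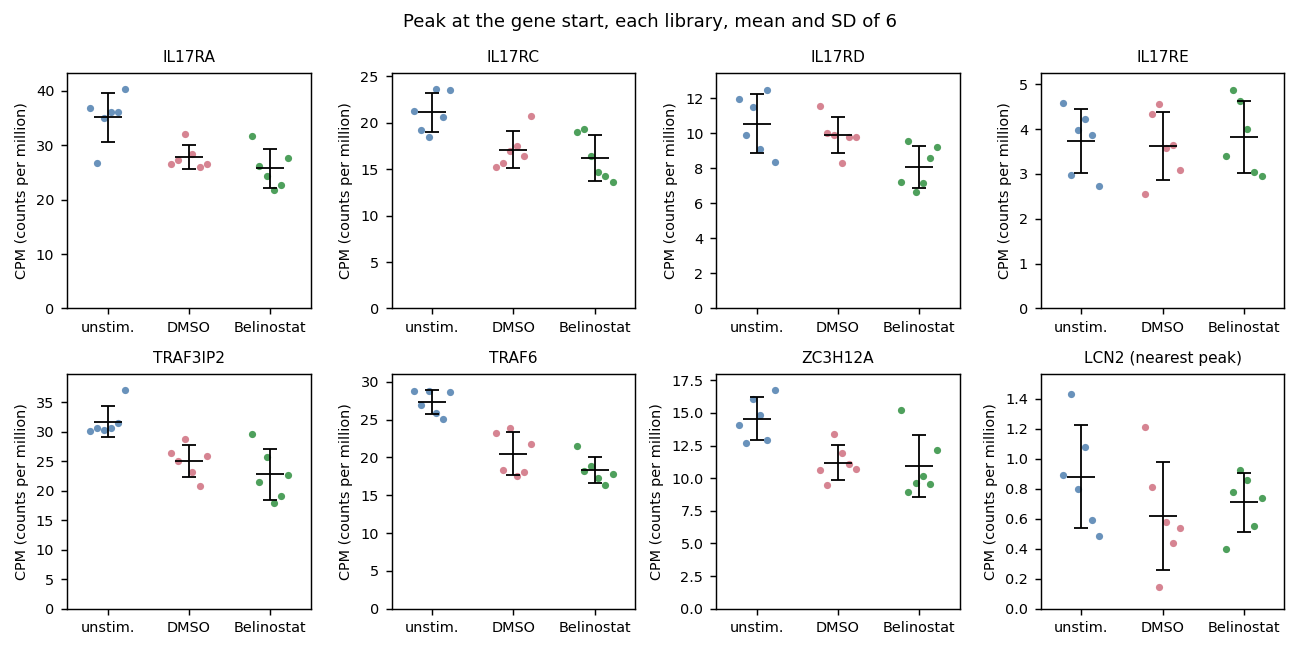
Level of the peak at the start of each member gene in CPM, with 1 point per library, and the mean and SD of 6 libraries as a bar, for unstimulated, DMSO and belinostat cells. Unstimulated libraries sit above all DMSO libraries at TRAF3IP2 and TRAF6, and the points of IL17RE, IL17RD and LCN2 overlap between those groups.

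The cytokine contrast set pulsed, DMSO-treated cells against unstimulated ones. For the unstimulated cells the labels give no solvent, rest or harvest time. Effects of the pulses, the solvent and time in culture therefore cannot be told apart, and the residual contrast shares this limit. At the gene starts, 5 of 7 peaks were lower in DMSO than in unstimulated libraries in edgeR's quasi-likelihood test (Benjamini-Hochberg adjusted p under 0.05 over all peaks) with scaling by the trimmed mean of M values (TMM). Of all peaks in the series 9.73% were lower, and of the strong ones, with an average log2 CPM of 2 or more, 48.6% were. The TRAF6 start, at chr11:36509228-36510795, had 25.1, 27.8 and 28.8 CPM (lowest, median and highest) in unstimulated and 17.6, 20.0 and 23.9 CPM in DMSO libraries. These ranges did not overlap, and DMSO minus unstimulated was -0.42 ± 0.11 on the log2 scale (SE, with an adjusted p of 0.0047). This peak also overlaps RAG1, a gene on the opposite strand. The TRAF3IP2 start, at chr6:111604854-111606326, had 30.1, 30.7 and 37.0 CPM against 20.8, 25.5 and 28.7 CPM, again without overlap (log2 fold change -0.34 ± 0.11, adjusted p 0.0202). At IL17RA, chr22:17084522-17085863, levels of 26.7, 36.1 and 40.3 CPM stood against 26.1, 27.0 and 32.1 CPM, where the lowest unstimulated library lay among the DMSO libraries (-0.34 ± 0.11, adjusted p 0.0191). The starts of IL17RC (-0.31 ± 0.12, adjusted p 0.0461) and ZC3H12A (-0.38 ± 0.13, adjusted p 0.0241) were lower as well, with overlapping libraries. IL17RD (-0.09 ± 0.13, adjusted p 0.655), IL17RE (-0.06 ± 0.18, adjusted p 0.847) and the peak nearest to LCN2 (-0.52 ± 0.37, adjusted p 0.322) did not pass.

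Leaving out 1 library also ended calls. Without unstimulated 6 the adjusted p was 0.0719 at IL17RA, 0.120 at IL17RC, 0.0818 at TRAF3IP2 and 0.0811 at ZC3H12A. The IL17RA call was lost as well without unstimulated 1 (0.0592), the TRAF3IP2 call without DMSO 4 or 5 (0.0539 and 0.0650), the ZC3H12A call without DMSO 2, unstimulated 3 or unstimulated 4 (0.0547 to 0.0667), and the IL17RC call without belinostat 3, DMSO 1, 2, 4 or 5 or unstimulated 1, 4 or 5 (0.0511 to 0.140). The TRAF6 call was kept without each of the 18 libraries, although not under every other setting.

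None of these start peaks passed once the scaling followed peak strength. With loess offsets, which remove from each library a smooth trend of its counts with peak abundance, the log2 fold changes of the 7 start peaks ranged from -0.05 to 0.23 and the lowest adjusted p was 0.224. The direction turned at IL17RA (0.05), IL17RC (0.05), TRAF3IP2 (0.05), IL17RD (0.23) and IL17RE (0.14), and the value at TRAF6 became -0.05. Over 28 alternatives of scaling, filter, method and left-out library, the call was kept in 24 at TRAF6 and 21 at IL17RA. It was kept in 20 at TRAF3IP2, 18 at ZC3H12A and 12 at IL17RC. At each of these starts, a setting with neither loess offsets nor a left-out library also ended the call. The trend with peak strength ran through all peaks of the series. Among peaks with an average log2 CPM of 2 or more, 93.0% of all 54466 had a value below 0 and 48.6% were called lower, with a median of -0.34. All 29 member peaks of that strength had a value below 0, and 16 were called lower, with the same median of -0.34 (0.0038 with loess offsets). Of the 49 member peaks under an average log2 CPM of 1, 40 had a value above 0, 6 were called higher and 1 lower, beside 12.2% called higher and 0.800% called lower of all 238929 such peaks. The counts held by strong peaks, given above as a share, fell between the same groups, and its part in these values was not tested.

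**Figure D2:**
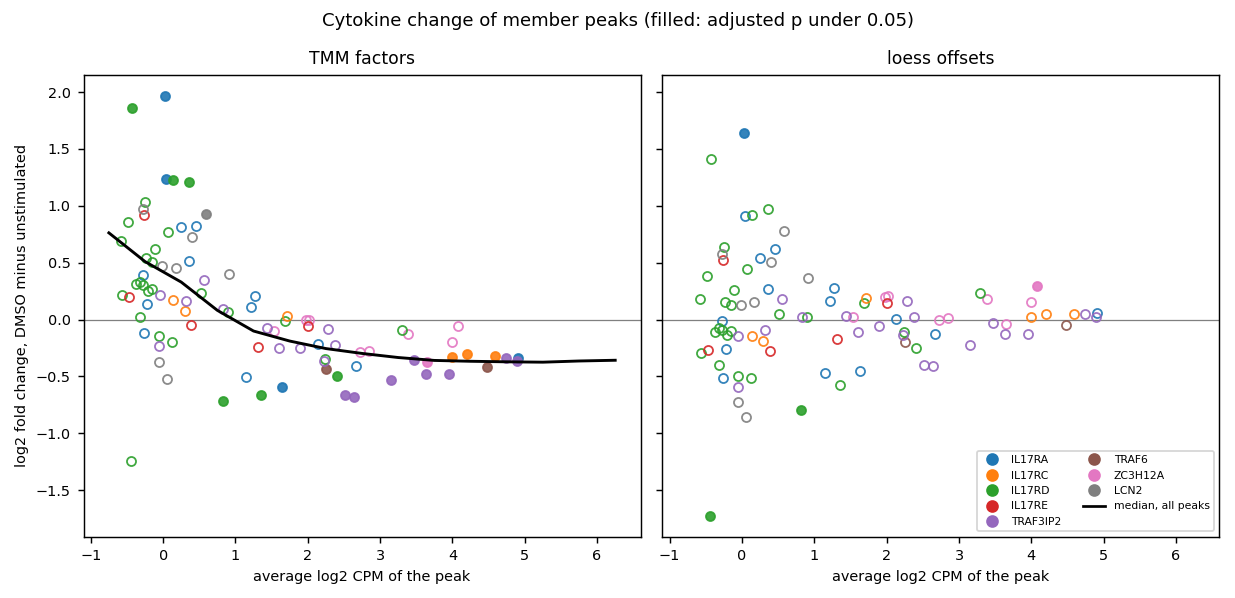
Cytokine log2 fold change (DMSO minus unstimulated) of the 92 member peaks against their average log2 CPM, scaled by TMM on the left and by loess offsets on the right, with 1 circle per peak coloured by gene (peaks of both IL17RC and IL17RE take 1 colour) and filled circles for an adjusted p under 0.05. With TMM the member peaks run along the median of all peaks (black line), high at weak peaks and low at strong ones, and with loess offsets they scatter around 0.

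Over all 92 member peaks, 6 were higher and 19 lower in the cytokine contrast, whereas 9.51% of all peaks were higher and 9.73% lower. With loess offsets 2 were higher and 2 lower, 4.35% of the members beside 3.91% of all peaks. Library totals gave 8 higher and 4 lower (16.2% and 3.25% of all peaks), and scaling on the weaker 50% of peaks gave 2 higher and 35 lower (2.26% and 25%), so the balance of directions depended on the scaling. The 8 lower peaks of TRAF3IP2 were the largest group, followed by 3 each at IL17RC and IL17RD, 2 each at IL17RA and TRAF6, and 1 each at IL17RE and ZC3H12A, with 1 peak counted for both IL17RC and IL17RE. Higher peaks were found at IL17RD (3), IL17RA (2) and LCN2 (1).

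At the receptor genes, the largest cytokine rise was in the last exon of IL17RA, in the peak printed first. Its level was 0.0981, 0.210 and 0.743 CPM in unstimulated and 0.875, 1.13 and 1.76 CPM in DMSO libraries, so all DMSO libraries lay above all unstimulated ones. It rose by 1.97 ± 0.42 on the log2 scale (adjusted p 0.000424), or by 1.64 under loess offsets (adjusted p 0.00863), and the peak passed in 28 of 28 alternatives. The signal is small, with 92 fragments over the 18 libraries. Belinostat libraries had 0.201, 0.737 and 1.14 CPM, which overlapped both other groups, and the belinostat contrast gave -0.73 ± 0.36 (adjusted p 0.305). A second peak of the same exon, at chr22:17109491-17109688, was also higher in DMSO libraries (1.24 ± 0.40, adjusted p 0.0189), although not with loess offsets (0.91, adjusted p 0.167). This second peak was named after its values were seen.

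IL17RD, the longest member gene, held peaks that moved in both directions. The distal intron 1 peak printed above had 0, 0.145 and 0.478 CPM in unstimulated, 0.442, 0.748 and 1.34 CPM in DMSO and 0, 0.167 and 0.593 CPM in belinostat libraries. DMSO libraries were thus highest, with a small overlap on both sides. The cytokine contrast gave 1.86 ± 0.49 (adjusted p 0.00471; with loess offsets 1.41, adjusted p 0.0756), and the belinostat contrast gave -1.58 ± 0.50 (adjusted p 0.0659; with loess offsets -1.71, adjusted p 0.0265). Only 58 fragments lay in this peak over all libraries. The proximal intron 1 peak, 3992 bp from the start, fell instead. It had 1.47, 2.31 and 2.60 CPM in unstimulated, 0.803, 1.41 and 1.77 CPM in DMSO and 0.602, 0.740 and 1.37 CPM in belinostat libraries (cytokine -0.72 ± 0.25, adjusted p 0.0326; with loess offsets -0.79, adjusted p 0.0495). The cytokine call of the proximal peak was lost without any 1 of DMSO 1, 4 or 6 or unstimulated 1, 2, 5 or 6 (adjusted p 0.0522 to 0.0965). Other settings ended it too, and it was kept in 17 of 28 alternatives. Another intron peak, at chr3:57127987-57128150, passed with loess offsets alone (-1.72, adjusted p 0.0227; with TMM -1.25, adjusted p 0.0632). These last 2 peaks were named after their values were seen, because so few member peaks passed with loess offsets.

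At IL17RC and IL17RE, the called peaks with the smallest cytokine p were shared with neighbouring genes. The peak at chr3:9915103-9916176 covers part of the last exon of IL17RE and lies 922 bp before the start of IL17RC. It had 15.3, 18.3 and 19.8 CPM in unstimulated and 13.3, 13.8 and 16.5 CPM in DMSO libraries (-0.33 ± 0.12, adjusted p 0.0375). The peak at chr3:9932814-9934154 covers the last exons of IL17RC and part of the neighbouring gene CRELD1. The nearest protein-coding start to it is that of CRELD1, not of IL17RC. It had 23.5, 28.9 and 30.8 CPM against 18.2, 22.3 and 27.9 CPM (-0.32 ± 0.11, adjusted p 0.0307). Both lost the call with loess offsets, at 0.02 (adjusted p 0.920) and 0.05 (adjusted p 0.728). The first was also lost without DMSO 1, 2, 4 or 5 or unstimulated 1, 3, 4 or 6 (adjusted p 0.0578 to 0.104), and the second without DMSO 4 or 6 or unstimulated 1, 3, 4, 5 or 6 (0.0523 to 0.112). Other settings ended both calls too, and they were kept in 13 and 14 of 28 alternatives.

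At TRAF3IP2, which encodes Act1, 15 of 19 peaks had a cytokine value below 0 and 8 were called lower, and none passed with loess offsets. The 8 called peaks all lay in the strength class of 2 or more, where 48.6% of all peaks were called lower. The 19 peaks include weaker ones, so 8 of 19 is not a share of that class. The intron 1 peak with the CA repeats had the smallest p. It had 5.35, 8.09 and 9.72 CPM in unstimulated and 3.63, 4.56 and 6.15 CPM in DMSO libraries, with overlapping ranges (-0.66 ± 0.16, adjusted p 0.00173; with loess offsets -0.40, adjusted p 0.0952). Belinostat libraries, at 2.57, 4.25 and 5.42 CPM, lay in the range of the DMSO group or below. An antisense RNA gene, TRAF3IP2-AS1, overlaps part of the locus. At ZC3H12A, the feedback enzyme, an intron peak at chr1:37476463-37477156 was higher with loess offsets (0.30, adjusted p 0.0169) and did not pass with TMM (-0.06 ± 0.12, adjusted p 0.766). It too was named after its values were seen.

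LCN2 lay in chromatin of low accessibility. Its 8 peaks held 927 counts over all libraries, against 17866 in the 19 peaks of TRAF3IP2. The upstream peak at chr9:128144926-128145292, 4161 bp before the start, was the only LCN2 peak called in the cytokine contrast. It had 0.483, 0.753 and 0.956 CPM in unstimulated, 0.677, 1.43 and 2.41 CPM in DMSO and 0.802, 1.5 and 2.15 CPM in belinostat libraries (cytokine 0.93 ± 0.31, adjusted p 0.0258; with loess offsets 0.78, adjusted p 0.133). The call was lost without DMSO 6 (adjusted p 0.120) or unstimulated 6 (0.0586). Other settings ended it too, and it was kept in 21 of 28 alternatives. The DMSO and belinostat libraries had overlapping ranges, and the belinostat contrast gave 0.02 ± 0.28 (adjusted p 0.978).

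**Figure D3:**
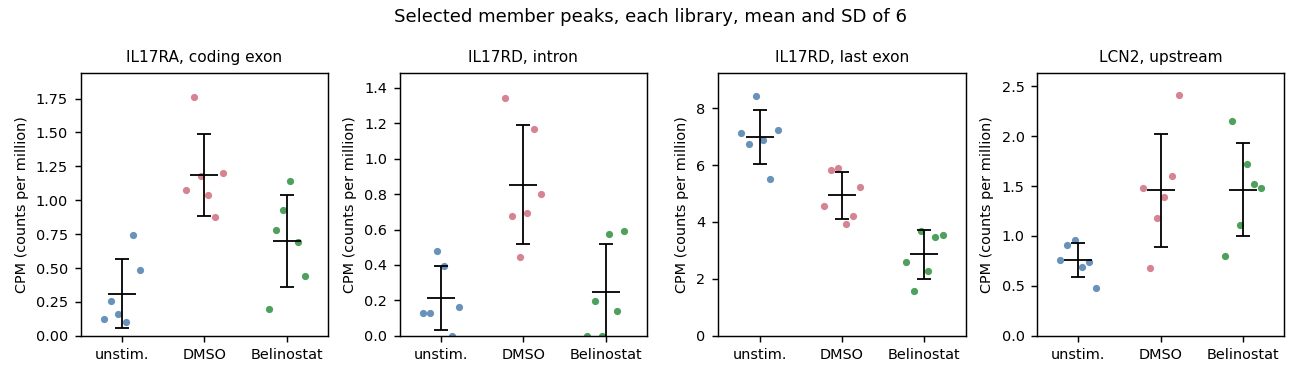
Level in CPM of 4 member peaks in each library, with the mean and SD of 6 as a bar. DMSO libraries sit above all unstimulated ones in the IL17RA coding exon, belinostat libraries sit below all DMSO ones in the last exon of IL17RD, and the IL17RD intron and LCN2 upstream peaks lie at or under 2.41 CPM.

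Counts summed over all peaks of a gene gave 1 value per locus and were tested over 19180 protein-coding loci. LCN2 rose in the cytokine contrast, from 3.80, 5.27 and 7.44 CPM in unstimulated to 6.02, 8.56 and 11.3 CPM in DMSO libraries, with an overlap (0.67 ± 0.21, adjusted p 0.0186). TRAF6 fell from 30.1, 31.4 and 32.3 CPM to 24.5, 27.1 and 32.4 CPM, with overlapping ranges (-0.18 ± 0.06, adjusted p 0.0205). TRAF3IP2 fell from 156, 159 and 171 CPM to 135, 149 and 155 CPM, without overlap (-0.14 ± 0.04, adjusted p 0.0187). The receptor loci IL17RA (0.04 ± 0.05), IL17RC (-0.05 ± 0.05), IL17RD (0.18 ± 0.09) and IL17RE (0.01 ± 0.07) and ZC3H12A (0.06 ± 0.05) did not pass, with adjusted p between 0.110 and 0.898. Thus 1 of 8 loci was higher and 2 were lower, beside 20.2% and 13.4% of all loci. With loess offsets TRAF6 alone passed (-0.18, adjusted p 0.0270), beside 22.4% of all loci in either direction, while LCN2 had 0.33 (adjusted p 0.157) and TRAF3IP2 -0.09 (adjusted p 0.104). For loci these offsets follow the summed abundance of the locus, not the strength of its peaks. Neither TRAF6 peak passed with loess offsets on peaks, at -0.05 (adjusted p 0.746) over the start and -0.19 (adjusted p 0.492) in intron 2. The direction at LCN2 turned to -0.012 when the libraries were scaled on the weaker 50% of peaks, a scaling that moved the median of all loci from -0.02 to -0.70, so LCN2 stayed above that median. With the gene body and 3 kb upstream as the window, LCN2 did not pass (0.42 ± 0.24, adjusted p 0.165). Without library DMSO 5 none of the 3 calls was kept, with adjusted p of 0.0510 at LCN2, 0.0523 at TRAF3IP2 and 0.0541 at TRAF6.

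**Figure D4:**
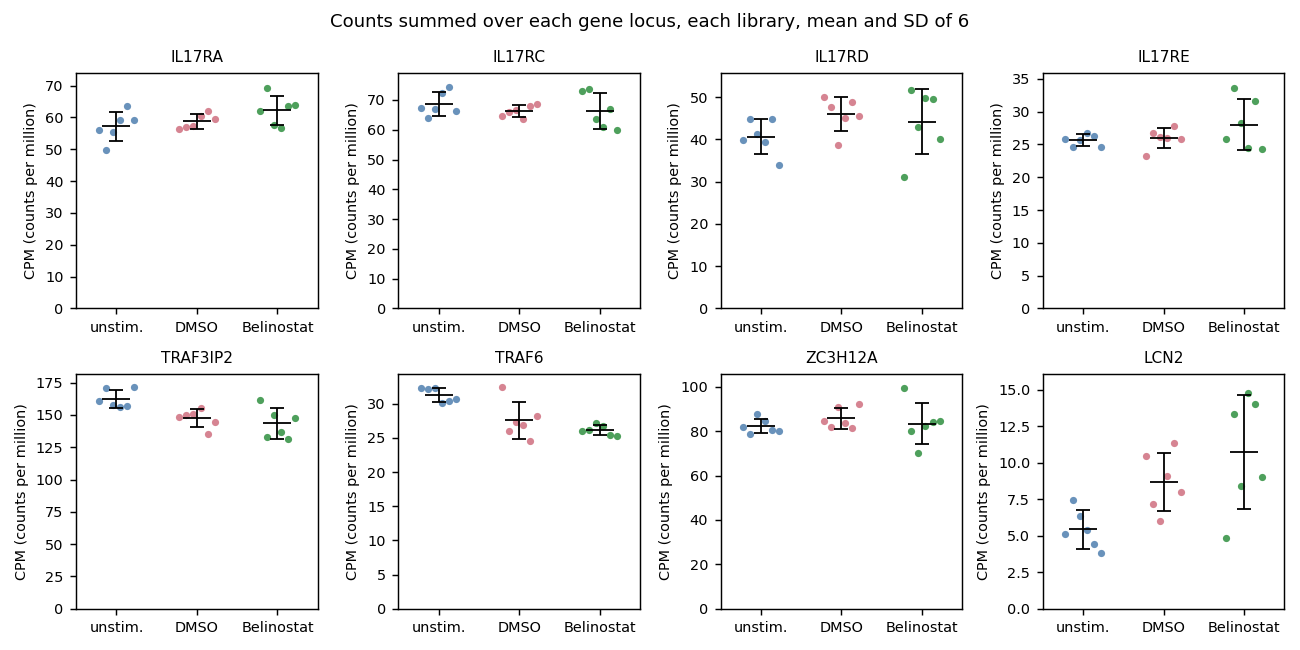
Counts summed over each member locus in CPM, with 1 point per library and the mean and SD of 6 as a bar, by group. TRAF3IP2 is highest at 131 to 171 CPM, LCN2 lowest at 3.80 to 14.8 CPM, and the groups of the receptor loci overlap.

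The belinostat contrast asked whether the inhibitor moved these genes away from the DMSO state. No member locus passed, at an adjusted p from 0.378 to 0.986. With all 18 libraries, none had an unadjusted p under 0.05 in edgeR with TMM over loci, or in DESeq2. In edgeR, 1 was lower at that level when scaled on the weaker 50% of peaks, and 1 was higher without belinostat 1. Over all loci 1.92% were higher and 3.93% lower, and 5.27% passed in either direction with loess offsets. The estimates ran from -0.08 ± 0.06 at TRAF6 to 0.32 ± 0.21 at LCN2, with IL17RA at 0.08 ± 0.06, IL17RC at -0.0021 ± 0.053, IL17RD at -0.05 ± 0.09, IL17RE at 0.10 ± 0.08, TRAF3IP2 at -0.04 ± 0.05 and ZC3H12A at -0.04 ± 0.06. LCN2 reached 4.82, 11.2 and 14.8 CPM in belinostat libraries, which overlapped both other groups. At the gene starts the 7 values lay between -0.29 and 0.06, with an adjusted p of 0.294 or more.

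Among the member peaks, 1 was lower and none was higher in the belinostat contrast, beside 1.75% and 0.607% of all peaks. At an unadjusted p under 0.05 there were 5 higher and 10 lower member peaks, beside 8.21% and 7.68% of all peaks. DESeq2 gave an adjusted p for 48 of the 92 member peaks and called none higher and 2 lower of these (4.17%), beside 4.51% lower of the peaks it tested, and with loess offsets 2 were lower, or 2.17% of the members beside 2.45% of all peaks. The peak that passed lies in the last exon of IL17RD, exon 13, in its 3′ untranslated part at chr3:57091405-57092015, 73338 bp from the start. It had 5.50, 6.99 and 8.44 CPM in unstimulated, 3.93, 4.89 and 5.90 CPM in DMSO and 1.56, 3.04 and 3.70 CPM in belinostat libraries. All belinostat libraries lay below all DMSO libraries, and the log2 fold change was -0.76 ± 0.19 (adjusted p 0.00777; with loess offsets -0.66, adjusted p 0.0202). The cytokine contrast had the same sign (-0.50 ± 0.15, adjusted p 0.0149), although not with loess offsets (-0.25, adjusted p 0.310) or without DMSO 4 (adjusted p 0.0556). Belinostat libraries were therefore farther from the unstimulated ones than DMSO libraries were. The belinostat call was kept in 27 of 28 alternatives and was lost without library belinostat 2 (adjusted p 0.0532). The other peak called with loess offsets was the distal intron 1 peak of IL17RD, described above.

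In the residual contrast, belinostat libraries were compared with unstimulated ones. Of the 92 member peaks 11 were higher and 25 lower, beside 16.8% and 13.7% of all peaks, and with loess offsets 1 was higher and 5 were lower, beside 8.75% of all peaks in either direction. The split depended on the scaling, with 21 higher and 7 lower under library totals (30.4% and 6.31% of all peaks) and 1 higher and 45 lower when scaled on the weaker 50% of peaks (2.77% and 30.5%). The last exon peak of IL17RD (-1.26 ± 0.18, adjusted p 3.86e-09; with loess offsets -0.91, adjusted p 3.65e-05) and its proximal intron 1 peak (-1.39 ± 0.29, adjusted p 9.58e-05; with loess offsets -1.48, adjusted p 0.000136) were among those that passed under both scalings. At the gene starts 6 of 7 peaks were lower, with values from -0.58 to 0.0016, and none passed with loess offsets. Of all peaks with an average log2 CPM of 2 or more, 65.6% were called lower in this contrast and 93.9% had a value below 0. Among the loci, LCN2 was higher (0.98 ± 0.21, adjusted p 0.000521), TRAF6 was lower (-0.26 ± 0.06, adjusted p 0.00117) and TRAF3IP2 was lower (-0.18 ± 0.04, adjusted p 0.00184), beside 27.6% higher and 25.1% lower of all loci. TRAF6 had 25.2, 26.1 and 27.1 CPM in belinostat libraries, all below the unstimulated ones. With loess offsets, 38.6% of all loci passed. Of the members, TRAF6 (-0.27, adjusted p 0.00120), LCN2 (0.50, adjusted p 0.0198) and IL17RA (0.20, adjusted p 0.00599) passed, and TRAF3IP2 did not (-0.09, adjusted p 0.0835). No single peak of TRAF6, LCN2 or IL17RA passed in this contrast with loess offsets on peaks.

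Among 54 further genes of the pathway that had a locus, 12 were higher and 4 lower in the cytokine contrast, beside 20.2% and 13.4% of all loci (median 0.02, against -0.02 over all loci), and with loess offsets 6 were higher and 4 lower, beside 14.2% and 8.20%. The split turned to 2 higher and 24 lower on 10 kb bins (12.5% and 55.6% of all loci) and to 1 and 45 on the weaker 50% of peaks (1.96% and 82.4%), and was 9 and 8 with library totals (18.9% and 19.4%). Of 5 ligands, IL17C and IL25 were higher, and so were both other receptor genes, IL17RB and IL17REL, although none of these 4 passed with loess offsets. Of 19 adaptors, kinases and inhibitors, IKBKB, IKBKE, TAB2 and TRAF2 were higher and MAP3K7 was lower. Of 17 target genes, CXCL5, CXCL6, DEFB4A and S100A8 were higher and none was lower, although CXCL6 and DEFB4A did not pass with loess offsets. Of 6 RNA regulators ARID5A was lower, as were CEBPB and CEBPD of 5 transcription factors. The smallest p belonged to CXCL5, a neutrophil-attracting chemokine, at 2.25, 2.94 and 3.63 CPM in unstimulated and 4.74, 5.51 and 8.38 CPM in DMSO libraries (0.99 ± 0.17, adjusted p 0.000311; with loess offsets 0.51, adjusted p 0.0257). S100A8, a subunit of calprotectin, had 1.16 ± 0.24 (adjusted p 0.00108; with loess offsets 0.74, adjusted p 0.00618), with overlapping libraries. ARID5A, which protects inflammatory messenger RNAs, went from 71.2, 76.7 and 82.7 CPM to 63.9, 66.6 and 69.2 CPM (-0.20 ± 0.05, adjusted p 0.00268; with loess offsets -0.15, adjusted p 0.0172).

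In the belinostat contrast 3 of these 54 genes were lower and none was higher, beside 3.93% and 1.92% of all loci. When scaled on the weaker 50% of peaks none of the 54 was called, and 0.0417% of all loci were lower. IKBKB, a catalytic subunit of the IκB kinase, had 69.9, 75.0 and 79.6 CPM in unstimulated, 76.9, 83.1 and 88.9 CPM in DMSO and 64.9, 67.5 and 79.7 CPM in belinostat libraries. It was thus higher in DMSO than in unstimulated libraries (0.14 ± 0.05, adjusted p 0.0383) and lower again with belinostat (-0.25 ± 0.05, adjusted p 0.00567; with loess offsets -0.21, adjusted p 0.0294). The cytokine values of IKBKB and IKBKE turned negative under scaling on 10 kb bins (-0.05 and -0.04) and on the weaker peaks (-0.55 and -0.53), where the median of all loci was -0.21 and -0.70. The related kinase IKBKE had 53.0, 59.1 and 60.6 CPM, then 59.4, 64.7 and 68.4 CPM, then 51.9, 55.8 and 58.4 CPM, and its belinostat libraries all lay below its DMSO libraries (cytokine 0.15 ± 0.05, adjusted p 0.0132; belinostat -0.20 ± 0.05, adjusted p 0.0130). MMP13, a collagenase, did not pass in the cytokine contrast (0.07 ± 0.09, adjusted p 0.579) and was lower with belinostat (-0.38 ± 0.10, adjusted p 0.0245), at 17.8, 22 and 24.9 CPM against 23.2, 29.3 and 35.2 CPM in DMSO libraries. With 3 kb upstream in the window the belinostat calls of IKBKB (adjusted p 0.0809) and IKBKE (0.0954) were lost. The MMP13 call was lost without belinostat 2 (adjusted p 0.0685), DMSO 2 (0.0756) or DMSO 3 (0.0527), and the cytokine call of IKBKB without DMSO 1, 2, 5 or 6 or unstimulated 3, 5 or 6 (0.0564 to 0.0963). Over 30 alternatives, the cytokine call of IKBKB was kept in 19. The belinostat call was kept in 28 at IKBKB, 27 at IKBKE and 25 at MMP13. Both contrasts use the DMSO libraries, so opposite signs at IKBKB and IKBKE are not independent. In the residual contrast 15 of the 54 genes were higher and 15 lower, beside 27.6% and 25.1% of all loci, and with loess offsets 5 were higher and 12 lower, beside 20.8% and 17.8%.

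Motif letters were searched on both strands in the central 150 bp of each peak. The AP-1 letters were found in 10 of 92 member peaks (10.9%) and in 11.7% of all peaks, the C/EBP letters in 8 (8.70%, all peaks 7.37%), the TEAD letters in 9 (9.78%, all peaks 12.2%) and the NF-κB letters in 2 (2.17%, all peaks 2.18%). In the RefSeq promoters of GRCh38.p14, of 300 bp, all 8 members were matched, by 10 entries of 22199. The AP-1 letters occurred in the promoters of LCN2 and TRAF3IP2 (6.15% of all promoters), the C/EBP letters in those of IL17RD and LCN2 (8.69%), the TEAD letters in those of IL17RE, LCN2 and TRAF6 (12.2%) and the NF-κB letters in none (6.09%). Such letters are a description of the sequence and do not show that a factor was bound. A site that differs from the searched letters in any base was not counted. A promoter without a match may therefore still hold a site, also for NF-κB.

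Across the 18 libraries, each member was set beside all loci more than 1 Mb away or on other chromosomes, by Pearson's r of log2 CPM. The most alike locus was GSG1L for LCN2 (r 0.96), UBAP1L for IL17RD (0.92), KIF13A for TRAF3IP2 (0.92), ATP6V1E2 for TRAF6 (0.87), CDADC1 for ZC3H12A (0.81), TREH for IL17RE (0.81), CA9 for IL17RA (0.81) and ISG15 for IL17RC (0.79). Among the members themselves LCN2 and IL17RD ran most alike (r 0.79) and LCN2 and TRAF3IP2 most opposed (-0.84). These values describe libraries that share groups and depth trends. Each most alike locus was picked as the highest r among 19119 to 19170 loci, depending on the member, so its r is high by selection.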

How the data were processed

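Omni-ATAC-seq libraries of Ccd18-Co cells (18 libraries, 6 in each of 3 groups) were analysed from 1 table of raw counts per consensus peak that the authors deposited. The authors aligned the reads to hg38, called peaks with MACS2 and counted fragments per peak, and ChIPseeker 1.34.1 is named in the submitters' processing notes. The counts were not normalised. Peaks were assigned to genes with GENCODE release 44. Counts were fitted in R with edgeR 4.0.16 (quasi-likelihood test, TMM factors over all peaks, 1 mean per group, average log2 CPM over -3, which removed no peak), with Benjamini-Hochberg adjustment across the whole table of peaks or of loci. CPM values are TMM-scaled, except those of the cell type markers, which are scaled to library totals and so are on another scale. Log2 CPM used a prior count of 2, and the SE of a log2 fold change was taken as its size divided by the root of F. Loci were refitted with their own factors. The code was tested on simulated data.

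The alternatives were library totals, TMM on 10 kb bins or on the weaker 50% of peaks, loess offsets, DESeq2 1.42.0, other filters, other locus windows, the replicate number as a block and leaving out each library. The members and lists were chosen with earlier results of these data known. Named were the member loci, the start peaks, member peaks called in the belinostat contrast, the called peak of each member with the smallest cytokine p in each direction, the most alike locus, and pathway genes called in the belinostat contrast or with the 3 smallest cytokine p. Peaks named outside this rule are stated as such. Depth was 4661678 to 11352032 counts per library.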

Additional observations from a re-analysis of the deposited data

Results flagged for a closer look

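Within the groups of 6 libraries, 2 of 48 groups examined held a library far from the others, where chance alone flags about 1 in 20. At the start peak of IL17RA, the library unstimulated 2 was lowest, with a log2 CPM of 4.76, while the other 5 unstimulated libraries lay between 5.14 and 5.34. At the start peak of TRAF3IP2, the library unstimulated 6 was highest, with a log2 CPM of 5.22, while the others lay between 4.93 and 4.99. Unstimulated 6 is also the library with 11.3% of all peaks at a count of 0.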

How the results depend on the processing

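The scaling of the libraries mattered most. With loess offsets, 4, 2 and 6 member peaks (cytokine, belinostat and residual contrasts) and 1 member locus (cytokine) were called, in place of 25, 1, 36 and 3. Cytokine values turned to 0.055, 0.051 and 0.045 at the IL17RA, IL17RC and TRAF3IP2 starts, to 0.050 at the last exons of IL17RC, to 0.23 and 0.14 at the IL17RD and IL17RE starts, to 0.020 at the peak shared by IL17RC and IL17RE, and to 0.30 at the ZC3H12A intron peak, while the IL17RC locus turned to 0.00059, 0.030 and 0.031 (cytokine, belinostat, residual) and the ZC3H12A locus to 0.0026 (belinostat). On 10 kb bins 5 loci were called in the residual contrast. Cytokine locus values turned to -0.15 (IL17RA), -0.011 (IL17RD), -0.17 (IL17RE), -0.13 (ZC3H12A), -0.049 (IKBKB), -0.037 (IKBKE) and -0.12 (MMP13), and residual ones to -0.14 at IL17RA, IL17RD and IL17RE and -0.23 at ZC3H12A. On the weaker 50% of peaks, 2 peaks (belinostat) and 7 loci (cytokine, and 7 residual) were called. Cytokine values became -0.65 (IL17RA), -0.50 (IL17RD), -0.66 (IL17RE), -0.62 (ZC3H12A), -0.012 (LCN2), -0.55 (IKBKB), -0.53 (IKBKE) and -0.63 (MMP13), belinostat ones -0.11 at IL17RA and IL17RE, and residual ones -0.77 at IL17RA and IL17RE, -0.79 at IL17RD and -0.85 at ZC3H12A. With library totals 12 peaks were called (cytokine), and values turned to -0.011 (IL17RE locus, cytokine), -0.0049 (ZC3H12A locus, residual), 0.12 and 0.15 (IL17RD and IL17RE starts) and 0.16 (ZC3H12A intron peak). With an average log2 CPM over 0, 13, 2 and 23 peaks were called, and the same 3 peaks turned to 0.051, 0.082 and 0.085. DESeq2 called 11 peaks (cytokine) and 2 (belinostat), with the IL17RC locus at 0.0052 (belinostat). With peaks given to the nearest start, 5 loci were called (residual), and IL17RA (-0.027) and IKBKE (-0.045) turned in the cytokine and ZC3H12A (0.0085) in the belinostat contrast. The cause of these changes was not tested.

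The replicate numbers did not pair the libraries (same-number correlations -0.13 to 0.11 over 18 pairs, and 4 libraries matched their own number best). With the replicate block 26, 2 and 35 peaks were called. A replicate block with loess offsets, chosen after seeing the data, gave 4, 2 and 6 peaks and 1 cytokine locus, and turned the starts of IL17RA (0.059), IL17RC (0.059), TRAF3IP2 (0.044), IL17RD (0.23) and IL17RE (0.15), the shared peak (0.022), the last exons of IL17RC (0.050), the ZC3H12A intron peak (0.29), and the loci of IL17RC (0.0023, 0.028 and 0.030), TRAF3IP2 (0.00039, belinostat) and ZC3H12A (0.00099, belinostat).

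Leaving out 1 library gave 12 to 27 member peaks (cytokine), 1 to 4 (belinostat) and 0 to 4 loci (cytokine). The cytokine count was 16 without unstimulated 1 and 12 without unstimulated 6, and the belinostat count was 4 without belinostat 1, 3 without belinostat 6, DMSO 1 or DMSO 5, and 2 without belinostat 3 or 4, DMSO 2 or unstimulated 6. Values that changed sign ranged from -0.032 to 0.027 (IL17RC locus, belinostat), -0.100 to 0.024 (IL17RD, belinostat), -0.0052 to 0.042 (IL17RE, cytokine), -0.091 to 0.0043 (ZC3H12A, belinostat), -0.033 to 0.063 (ZC3H12A, residual) and -0.14 to 0.022 (IL17RE start, cytokine). Without unstimulated 6 and with loess offsets, a pair of choices made after seeing the data, 2, 2 and 8 peaks and 1 cytokine locus were called, and values turned to 0.030 and 0.017 (IL17RC locus, belinostat and residual), -0.00041 (IL17RE locus, cytokine) and 0.0022 (ZC3H12A locus, belinostat), and in the cytokine contrast to 0.057 (IL17RA start), 0.16 (IL17RD start), 0.065 (IL17RE start), 0.047 (IL17RC start), 0.054 (TRAF3IP2 start), 0.013 (shared peak), 0.028 (last exons of IL17RC) and 0.29 (ZC3H12A intron). Peaks with few counts have wide errors, so smaller differences there were not detectable at this depth.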
